A study of Mus musculus with 12 samples.

Results

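The 31 genes described here code for the enzymes of cholesterol and fatty acid synthesis and for the proteins that control them through SREBP. They were taken by symbol from a table of 60683 rows, and each of the 31 symbols had a row. Of them, 25 formed the sterol branch, made up of 19 enzymes and 6 regulators or carriers, and 6 formed the fatty acid branch. The RNA came from EMT6, a line of mouse breast cancer cells grown in a medium with fetal bovine serum. A control subclone (shNTC, labelled wild type) and a subclone carrying a short hairpin RNA against ISG20 (shISG20, labelled ISG20 knockdown) were each held at 20% O2 or at 1% O2 for 48 hours. Each of the 4 groups had 3 libraries, 12 in all, labelled as biological replicates. Whether they came from separate cultures is not stated, so a p-value here measures only the spread among these libraries, part of which may be technical. Each arm is a single subclone, so the effect of the hairpin and other differences between the 2 subclones cannot be told apart.

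As background, SREBF2 and SREBF1 code for transcription factors of the SREBP family, which are made as precursors held in the membrane of the endoplasmic reticulum. SCAP escorts the precursors to the Golgi, where proteases release the active part, which switches on genes of sterol and fatty acid synthesis. When sterols are plentiful, the INSIG proteins hold SCAP back. SREBP-2 acts mainly on the sterol branch and SREBP-1 mainly on the fatty acid branch, and INSIG1 is itself a target. Several steps of sterol synthesis, those of squalene epoxidase and of the oxidases that demethylate lanosterol among them, use molecular oxygen.

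The table held TPM, the share of a library's reads given to a gene after correction for gene length. Reads from these mouse cells were placed on the human build GRCh38, per the submitters' processing notes, and the rows are human genes. A level therefore depends on how well mouse reads match the human row, so levels were compared between groups within a row and never between rows. Library totals recovered from the table, which are lower bounds, ran from 3173991 to 5201799 reads. As a check of the labels, ISG20 at 20% O2 stood at 2.46 ± 0.372 TPM (SD, n = 3) in shNTC against 0.225 ± 0.0942 in shISG20, and at 1% O2 at 8.28 ± 0.623 against 0.566 ± 0.140 TPM. SLC2A1, the hypoxia-induced glucose transporter, rose from 46.3 to 686 TPM in shNTC and from 43.5 to 524 TPM in shISG20 at 1% O2, and VEGFA, the angiogenic factor, from 88.3 to 176 and from 69.2 to 138 TPM. One shISG20 library at 20% O2, replicate 3, is labelled 484 hours in place of 48 and was kept. Of 5 epithelial markers, KRT8, KRT18 and KRT19 reached 1 TPM in at least 3 libraries, while CDH1 was at 0 and EPCAM stayed below 1 TPM in every library. The summed level of the 5 was 41.9 to 57.4 TPM at 20% O2 and 197 to 235 TPM at 1% O2. Of 5 leucocyte markers CSF1R alone reached 1 TPM, and their sum was 0 to 0.15 TPM at 20% O2 and 1.18 to 3.23 TPM at 1% O2. Of 3 mesenchymal markers VIM and FN1 reached 1 TPM in every library and CDH2 was at 0. Their sum was 2981 to 3006 TPM in shNTC and 2288 to 2518 TPM in shISG20 at 20% O2, and 7181 to 7288 and 8295 to 8473 TPM at 1% O2, so shISG20 was the lower at 20% O2 and the higher at 1% O2. The endothelial and adipocyte markers were at 0 in every library. The part of these marker differences in the results was not tested.

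Promoter windows of 250 bases before the gene start were read for 26 of the 31 members from RefSeq (GRCm38.p6), 34 windows in all since some genes have several starts. They are shown for a sterol enzyme that rose at 1% O2 (HMGCS1), the feedback regulator that rose with it (INSIG1) and the escort protein that fell (SCAP). Capitals mark 3 searched motifs on either strand: a sterol response element with the letters TCACNCCAC, the NF-Y box CCAAT, and the core of a hypoxia response element, ACGTG. A match on the other strand is printed as its reverse complement.
HMGCS1, chr13:119690101-119690350, plus strand: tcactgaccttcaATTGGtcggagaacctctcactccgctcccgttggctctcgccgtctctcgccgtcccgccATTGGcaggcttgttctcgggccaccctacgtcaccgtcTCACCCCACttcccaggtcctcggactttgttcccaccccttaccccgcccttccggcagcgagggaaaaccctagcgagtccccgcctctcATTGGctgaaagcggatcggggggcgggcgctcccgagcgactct
INSIG1, chr5:28071162-28071411, plus strand: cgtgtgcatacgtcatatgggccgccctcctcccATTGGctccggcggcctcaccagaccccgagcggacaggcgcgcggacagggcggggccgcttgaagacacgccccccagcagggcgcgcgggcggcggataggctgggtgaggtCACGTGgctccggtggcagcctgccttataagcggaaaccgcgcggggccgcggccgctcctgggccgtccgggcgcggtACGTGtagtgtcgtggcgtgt
SCAP, second of 2 windows, chr9:110333106-110333355, plus strand: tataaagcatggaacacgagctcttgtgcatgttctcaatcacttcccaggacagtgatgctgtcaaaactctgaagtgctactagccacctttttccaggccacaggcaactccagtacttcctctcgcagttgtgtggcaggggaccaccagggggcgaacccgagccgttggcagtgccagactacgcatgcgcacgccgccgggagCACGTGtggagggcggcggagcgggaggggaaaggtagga

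The sterol response element letters stood in 1 of the 34 member windows, that of HMGCS1, at bases -137 to -129 counted from the gene start, against 1.05% of 32851 promoter windows. CCAAT stood in 22 of the 34 windows (64.7%), against 33.8% of all windows, and 21 of the 26 members had it in at least 1 window. HMGCS1 had 3 copies and INSIG1 had 1. ACGTG stood in 6 of 34 windows (17.6%), against 16.6% of all windows. INSIG1 held it at bases -100 to -96 and -21 to -17, and the second SCAP window at -39 to -35. The copy at -100 in INSIG1 and the one in SCAP lie in a palindrome that matches on both strands, the 2 matches overlapping. In 30 of the 34 windows bases 21 to 50 after the start lay whole in a sense transcript of the gene (GENCODE M21). HMGCS1 was not among them: its longest run shared with a transcript was 22 bases in sense and 10 in antisense, so its start is less certain. A match is a description of these letters in these windows and not a binding site.

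Of the 31 members, 27 reached 1 TPM in at least 3 of the 12 libraries and were tested with limma on log2(TPM + 1). A row was called when its p, adjusted over all 14389 rows tested, was under 0.05, and fold changes are differences of log2(TPM + 1), a scale that makes the change of a low row look smaller than it is. HSD17B7, EBP, SC5D and STARD4 were not tested. EBP, the sterol isomerase, was listed at 0 in every library. TM7SF2 passed with 1 library at 20% O2 and 6 at 1% O2, MVD with 3 and 6, and MVK with 1 and 2, while the other 24 reached 1 TPM in all 12 libraries.

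At 1% O2 most of the sterol branch rose in both subclones. In shNTC 20 members rose and 2 fell, where 50.9% of all rows tested were called, 12.8% higher and 38.1% lower. In shISG20 22 members rose and 2 fell, where 56.8% of all rows were called, 14% higher and 42.8% lower. Of the 16 sterol enzymes tested, 14 rose in each subclone, with a median log2 change of 1.04 in shNTC and 1.41 in shISG20. TM7SF2, which passed the filter through its libraries at 1% O2, had to rise. Without it the counts were 19 risers of 26 members in shNTC and 21 in shISG20, and 13 of 15 sterol enzymes in each, with medians of 1.00 and 1.44. The median over all rows was -0.28 in shNTC and -0.35 in shISG20. With median-of-ratios size factors, which bring the median of all rows to 0.00, 3313 rows were called higher and 3208 lower in shNTC, and 3781 and 3822 in shISG20, against 1847 and 5479, and 2021 and 6152, on the TPM as deposited. The medians of the sterol enzymes were then 1.34 and 1.80. A TPM value is a share of the RNA sequenced from many cells, so fewer cells of a kind and less RNA per cell cannot be told apart.

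**Figure D1:**
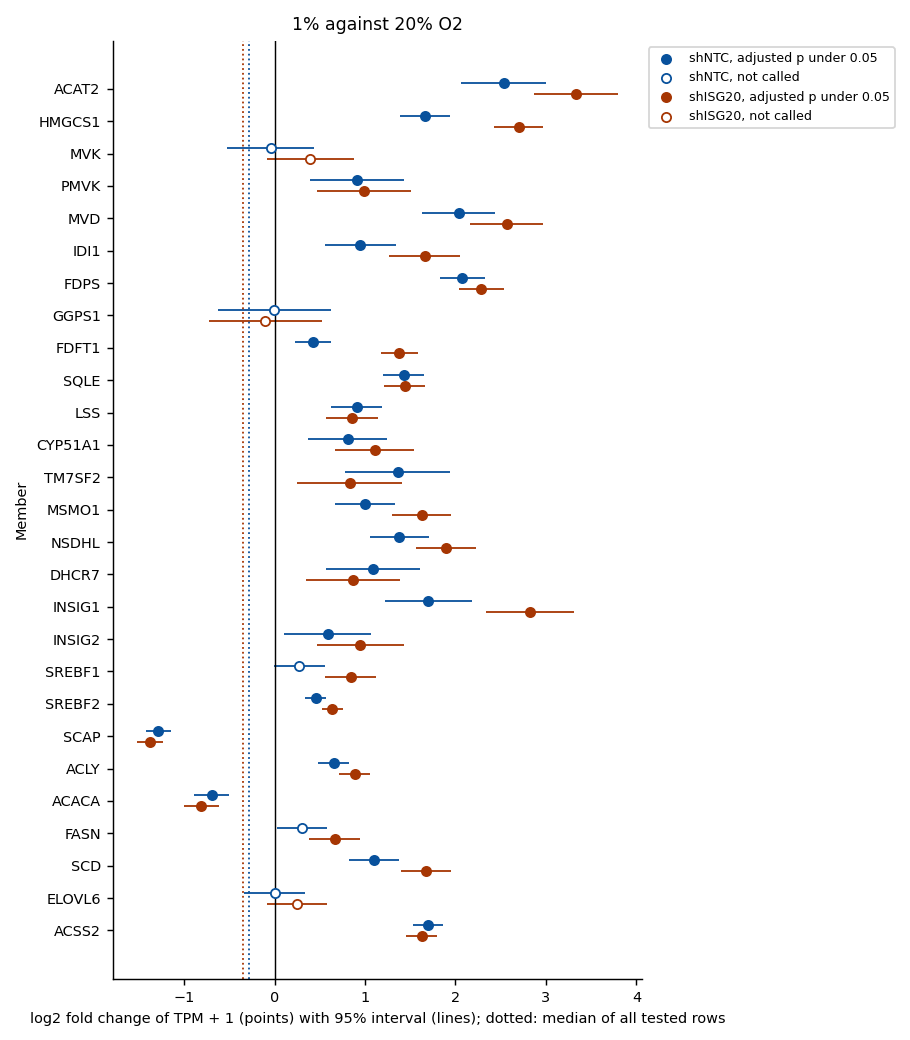
Log2 fold change of TPM + 1 at 1% against 20% O2 (horizontal axis) for the 27 tested members (vertical axis), with 95% intervals as lines, in shNTC (blue) and shISG20 (brown); filled points were called and open points were not, and dotted lines mark the median of all tested rows. The sterol enzymes lie to the right of 0 apart from MVK and GGPS1 in shNTC and GGPS1 in shISG20, and SCAP and ACACA lie to the left.

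The mevalonate enzymes, which build the isoprene units, come first in the pathway. ACAT2, the thiolase that joins acetyl-CoA units, had the largest rise of the 27 members in both subclones. It stood at 8.93, 5.13 and 4.23 TPM in shNTC at 20% O2 and at 39.8, 41 and 34.9 TPM at 1% O2. The shISG20 libraries gave 3.80, 2.94 and 2.34 TPM at 20% O2 and 39.3, 40.1 and 38 TPM. No library at 1% O2 came near a library at 20% O2, and the log2 change was 2.53 in shNTC (SE 0.21, limma adjusted p = 2.28e-06) and 3.33 in the other subclone (adjusted p = 1.93e-07).

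HMGCS1, the HMG-CoA synthase, stood at 26.2, 22.3 and 20.6 TPM in shNTC at 20% O2 and at 72.2, 76.9 and 74.7 TPM at 1% O2. In shISG20 it stood at 12.8, 13 and 15.8 TPM at 20% O2 and 91.2, 113 and 83.8 TPM at 1% O2. The 4 groups did not overlap: shISG20 was the lowest at 20% O2 and the highest at 1% O2. The log2 change at 1% O2 was 1.66 for shNTC (SE 0.12, limma adjusted p = 1.01e-06) and 2.70 for shISG20 (adjusted p = 1.89e-08).

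FDPS, which makes farnesyl diphosphate, went from 25.7 ± 1.35 to 111 ± 1.14 TPM in shNTC and from 28.5 ± 5.79 to 141 ± 6.07 TPM in shISG20 (SD, n = 3), log2 changes of 2.08 and 2.29 (limma adjusted p = 8.49e-08 and 3.01e-08). MVD, the mevalonate diphosphate decarboxylase, went from 1.36 ± 0.618 to 8.50 ± 0.713 TPM and from 0.888 ± 0.204 to 10.2 ± 0.499 TPM. IDI1, the isomerase that follows it, went from 2.28 ± 0.523 to 5.31 ± 0.830 TPM and from 1.40 ± 0.386 to 6.52 ± 0.451 TPM. Both rose in each subclone, MVD by 2.04 and 2.57 on the log2 scale and IDI1 by 0.95 and 1.66. PMVK, the phosphomevalonate kinase, rose by 0.91 (limma adjusted p = 0.00753) and 0.99 (0.00393), with the libraries of its 2 shNTC groups ranging from 9.00 to 13.4 and from 15.3 to 29.2 TPM. MVK, the mevalonate kinase, and GGPS1, which makes the longer geranylgeranyl diphosphate for protein prenylation, were not called in either subclone. MVK rested on 14 reads in shISG20 at 20% O2 and 30 at 1% O2, and on 20 and 24 in shNTC, and its log2 changes were -0.044 (95% interval -0.53 to 0.44) and 0.40 (-0.085 to 0.88). GGPS1 had log2 changes of -0.0035 (-0.63 to 0.62) and -0.10 (-0.73 to 0.52).

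After farnesyl diphosphate 8 enzymes were tested, and each was called higher in both subclones, TM7SF2 with the limit given above. FDFT1, squalene synthase, which commits the pathway to sterols, stood at 8.54, 9.38 and 9.61 TPM in shNTC at 20% O2 and at 13.1, 12.9 and 11.9 TPM at 1% O2. The shISG20 values were 5.93, 6.63 and 6.83 TPM at 20% O2 and 18.8, 18.6 and 17.8 TPM. As with HMGCS1, the 4 groups did not overlap and shISG20 held both the lowest and the highest values, with log2 changes at 1% O2 of 0.43 for shNTC (SE 0.091, limma adjusted p = 0.00237) and 1.38 for shISG20 (adjusted p = 2.64e-07).

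SQLE, CYP51A1 and MSMO1, which use oxygen, were among those that rose, while SC5D, which also uses it, was not tested. SQLE, squalene epoxidase, stood at 9.34, 7.39 and 7.79 TPM in shNTC at 20% O2 and at 21.7, 23 and 26.3 TPM at 1% O2. For shISG20 they were 10.0, 9.69 and 9.32 TPM at 20% O2 and 27.4, 28.1 and 28.2 TPM. The changes were of like size, 1.43 and 1.44 (limma adjusted p = 6.83e-07 and 4.57e-07), and the difference between them was 0.0086 with a 95% interval from -0.31 to 0.33. CYP51A1, the lanosterol demethylase, rose by 0.81 and 1.11, and MSMO1, the sterol methyl oxidase, from 9.31 ± 2.29 to 19.3 ± 1.54 TPM (1.00) and from 7.40 ± 0.157 to 25 ± 2.41 TPM (1.63). LSS, which closes the lanosterol rings, rose by 0.91 and 0.86, and NSDHL, the sterol dehydrogenase of the demethylating complex, by 1.38 and 1.89. The reductases rose as well: DHCR7, which makes cholesterol from its dehydro precursor, by 1.09 and 0.86, and TM7SF2, the sterol C14 reductase, by 1.36 and 0.83. Adjusted p-values from limma for these 6 ran from 1.03e-06 for NSDHL in shISG20 to 0.0188 for TM7SF2 in shISG20. TM7SF2 was counted with 9 reads over the 3 shNTC libraries at 20% O2 and 61 at 1% O2, and its shISG20 call did not hold in a fit of the 2 shISG20 groups alone (adjusted p = 0.063). It was also lost without shISG20 replicate 2 or 3 at 20% O2 (0.075 and 0.069) or replicate 1 or 2 at 1% O2 (0.051 and 0.052).

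**Figure D2:**
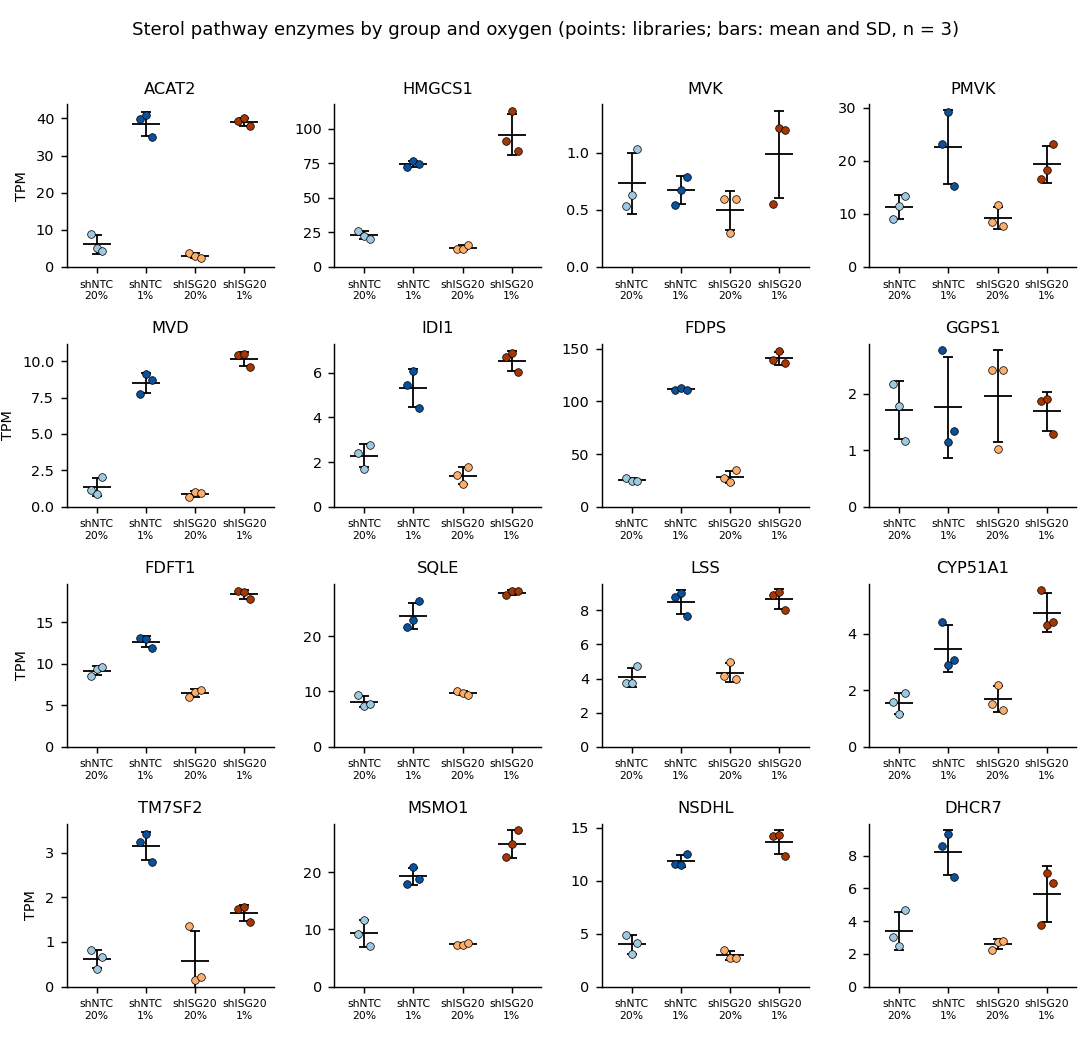
TPM (vertical axis, from 0) of the 16 tested sterol enzymes in each library (points) by subclone and oxygen (horizontal axis), with the mean and SD of 3 libraries as bars. HMGCS1 and FDFT1 are lower in shISG20 than in shNTC at 20% O2 and higher at 1% O2, while MVK and GGPS1 show groups that overlap.

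Besides EBP, 2 sterol enzymes fell below the filter and were counted with few reads. SC5D, the sterol desaturase that precedes DHCR7, had 4 and 14 reads in shNTC at 20% and 1% O2 and 13 and 20 in shISG20. HSD17B7, a ketoreductase of the demethylating complex, had 3 and 11 reads in shNTC and 5 and 8 in shISG20. With no filter on low values neither was called in any comparison by limma (adjusted p for HSD17B7 0.212 and 0.535, and for SC5D 0.278 and 0.369, at 1% O2 in shNTC and shISG20).

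Among the regulators, both INSIG genes and SREBF2 rose at 1% O2 while SCAP fell. INSIG1 stood at 4.56, 4.27 and 4.29 TPM in shNTC at 20% O2 and at 12.6, 18.3 and 19.3 TPM at 1% O2. In shISG20 the values were 3.80, 2.66 and 1.69 TPM at 20% O2 and 23.4, 29.9 and 21.5 TPM. Every library at 1% O2 was above every library at 20% O2, with log2 changes of 1.70 (SE 0.22, limma adjusted p = 6.69e-05) and 2.83 (adjusted p = 9.46e-07). INSIG2, its paralogue, rose by 0.59 in shNTC (adjusted p = 0.0439) and by 0.95 in shISG20 (0.00324). The shNTC call of INSIG2 was lost with a pseudocount of 0.1 (adjusted p = 0.053), with no filter (0.069), in a fit of the 2 groups alone (0.064) and without any of 3 of the 6 libraries.

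SCAP stood at 38.9, 38.4 and 39.2 TPM in shNTC at 20% O2 and at 14.9, 15.4 and 15.7 TPM at 1% O2. The shISG20 libraries stood at 49.7, 48.7 and 48.5 TPM at 20% O2 and 17.4, 19.3 and 18.1 TPM. The libraries of a group lay close together and the oxygen groups far apart, with log2 changes of -1.29 (SE 0.063, limma adjusted p = 3.99e-08) and -1.38 (adjusted p = 1.71e-08). SREBF2 stood at 93.6, 94.1 and 97.2 TPM in shNTC at 20% O2 and at 131, 134 and 127 TPM at 1% O2. For shISG20 the values were 96.1, 95.7 and 95.3 TPM at 20% O2 and 142, 161 and 146 TPM. The oxygen groups did not overlap in either subclone, and SREBF2 rose by 0.45 and 0.64 (limma adjusted p = 2.83e-05 and 1.53e-06). SREBF1 was 5.94 ± 0.762 and 7.36 ± 0.348 TPM in shNTC at 20% and 1% O2, a log2 change of 0.27 that was not called (adjusted p = 0.0976). In shISG20 it rose from 4.32 ± 0.322 to 8.55 ± 1.13 TPM, by 0.84 (adjusted p = 0.000179). With median-of-ratios size factors SREBF1 was called in shNTC as well (0.57, adjusted p = 0.004). STARD4, which carries cholesterol between membranes, had 2 and 11 reads in shNTC at 20% and 1% O2 and 2 and 18 in shISG20, and with no filter it was called higher in shISG20 (0.61, limma adjusted p = 0.0045) and not in shNTC (0.33, adjusted p = 0.091).

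The fatty acid branch was mixed. In shNTC 3 of its 6 enzymes rose and 1 fell at 1% O2, and in shISG20 4 rose and 1 fell. ACSS2, which makes acetyl-CoA from acetate, stood at 23.5, 21.5 and 24.6 TPM in shNTC at 20% O2 and at 75.1, 80.8 and 76.1 TPM at 1% O2. The shISG20 values were 34.1, 31.5 and 30.3 TPM at 20% O2 and 99.5, 109 and 94.3 TPM. Its oxygen groups lay far apart, with log2 changes of 1.70 and 1.63 (limma adjusted p = 2.33e-08 and 2.19e-08). ACLY, which makes acetyl-CoA from citrate, rose from 133 ± 7.60 to 209 ± 14.5 TPM (0.65) and from 106 ± 4.69 to 197 ± 18.8 TPM (0.88).

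ACACA, the acetyl-CoA carboxylase that makes malonyl-CoA, was the enzyme that fell. It stood at 41.7, 41.8 and 43 TPM in shNTC at 20% O2 and at 26.1, 26.5 and 24.5 TPM at 1% O2. In shISG20 the libraries gave 41.6, 38.1 and 42.4 TPM at 20% O2 and 20.6, 26.1 and 21.9 TPM. No library at 1% O2 reached the 20% O2 values, and the log2 changes were -0.69 and -0.81 (limma adjusted p = 5.92e-05 and 1.34e-05). With median-of-ratios size factors it was still called lower, with log2 changes of -0.36 and -0.40.

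SCD, the stearoyl-CoA desaturase, stood at 29.6, 24.3 and 29.5 TPM in shNTC at 20% O2 and at 56.8, 64.9 and 59.7 TPM at 1% O2. The shISG20 libraries gave 17.1, 13.7 and 16.5 TPM at 20% O2 and 53.2, 60.0 and 44.5 TPM. It rose by 1.10 and 1.67 (limma adjusted p = 2.71e-05 and 7.32e-07), and mouse cells have several Scd genes whose reads this human row may share. FASN, the fatty acid synthase, was 9.56 ± 0.118 and 12.1 ± 1.84 TPM in shNTC, not called (0.30, adjusted p = 0.0664), and rose from 9.40 ± 1.11 to 15.5 ± 1.47 TPM in shISG20 (0.66, adjusted p = 0.000933). With median-of-ratios size factors FASN was called in shNTC too (0.62, adjusted p = 0.0011). ELOVL6, the elongase that makes stearate, was not called in either subclone, with log2 changes of -0.00027 (95% interval -0.34 to 0.33) and 0.25 (-0.088 to 0.58).

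**Figure D3:**
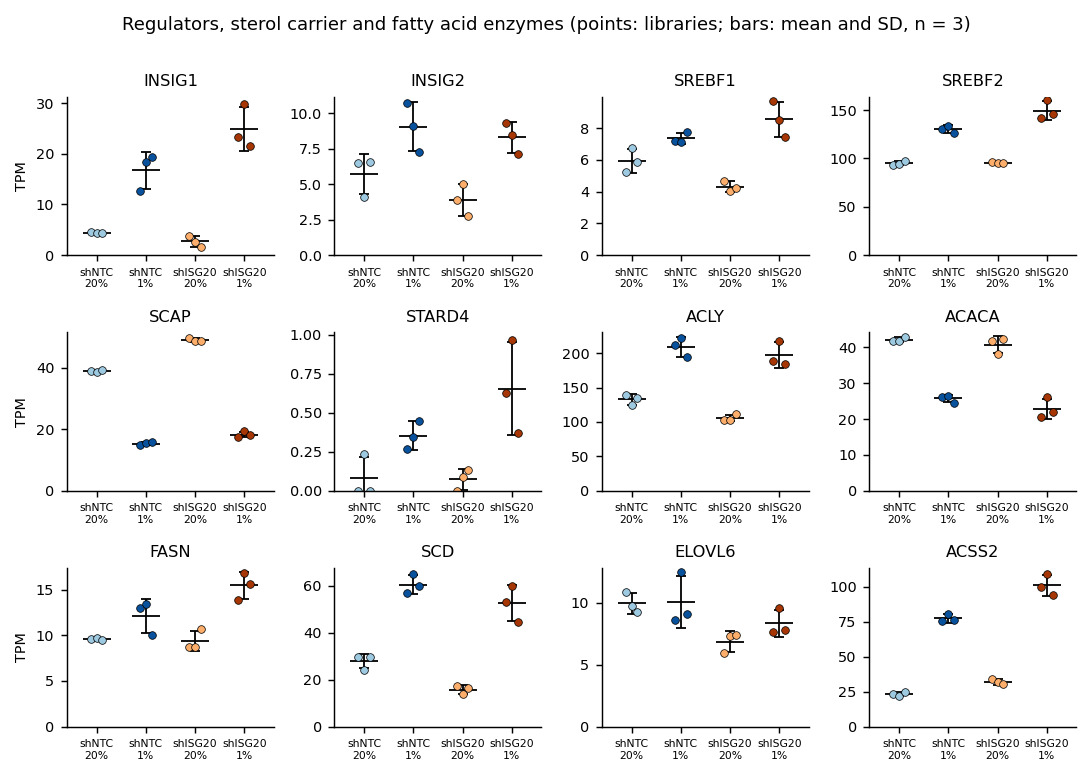
TPM (vertical axis, from 0) of the 6 regulators and carriers and the 6 fatty acid enzymes in each library (points) by subclone and oxygen (horizontal axis), with the mean and SD of 3 libraries as bars. SCAP and ACACA are lower at 1% O2 in both subclones, while INSIG1, SREBF2, ACLY, SCD and ACSS2 are higher.

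Whether the change with oxygen differed between the subclones was tested directly, as the difference of the 2 log2 changes. Of the 27 members, 2 were called, HMGCS1 and FDFT1, and both changed more in shISG20. Over all rows tested 6.93% were called, 2.62% higher and 4.31% lower. The share called in either direction was close to that of the members, whose 2 calls were both higher. With size factors the split of all rows turned from 377 higher and 620 lower to 594 and 456, and their median from -0.087 to -0.018. The difference was 1.04 for HMGCS1 (SE 0.18, limma adjusted p = 0.00737) and 0.95 for FDFT1 (SE 0.13, adjusted p = 0.00279). At an unadjusted p under 0.05 there were 10 members, all with the larger rise in shISG20. The share of all rows at that unadjusted p was not counted, so the 10 have no background and are listed as a description only. Besides the 2 called, INSIG1 had a difference of 1.13 (limma adjusted p = 0.0557), SCD of 0.58 (0.0783), SREBF1 of 0.57 (0.0862) and MSMO1 of 0.63 (0.0995). IDI1 had one of 0.71 (0.122), ACAT2 of 0.80 (0.138), NSDHL of 0.52 (0.171) and SREBF2 of 0.18 (0.172). The count of members called was 5 with median-of-ratios size factors, 7 with only rows that match a mouse gene and 7 with voom on the recovered reads, all higher, INSIG1 and SCD among them each time. Over all rows, size factors called 594 of 14389 higher and 456 lower. Mouse-matched rows gave 503 of 9280 higher and 918 lower, and voom 697 of 14389 higher and 1137 lower. Across the 27 members the log2 changes in the 2 subclones, which share no library, had a Pearson correlation of 0.93. The change was the more positive in shISG20 for 20 of the 27, against a median difference of -0.087 over all rows. The correlation over all rows, and the share of all rows with the more positive change, were not computed.

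At 20% O2 the shISG20 libraries had lower levels of several synthesis enzymes than the shNTC libraries. Of the 27 members, 5 were lower and 2 higher, where 11.6% of all rows were called, 6.55% lower and 5.05% higher. The 3 sterol enzymes that were lower were ACAT2, HMGCS1 and FDFT1. HMGCS1 went from 23 ± 2.86 to 13.9 ± 1.69 TPM (-0.69, SE 0.12, limma adjusted p = 0.00517) and FDFT1 from 9.17 ± 0.562 to 6.46 ± 0.470 TPM (-0.45, adjusted p = 0.00975). ACAT2 went from 6.10 ± 2.49 to 3.03 ± 0.733 TPM (-0.78, adjusted p = 0.0374), with the highest shNTC library at 8.93 TPM. Without that library, shNTC replicate 1, the ACAT2 difference was -0.51 and no longer called (adjusted p = 0.078), and it was also lost without shNTC replicate 2 (0.060) and without shISG20 replicate 2 (0.094) or 3 (0.12). In a fit of these 2 groups alone neither FDFT1 (adjusted p = 0.060) nor ACAT2 (0.16) was called, and ACAT2 was not called with no filter on low values (0.056).

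The other 2 that were lower belong to the fatty acid branch. SCD went from 27.8 ± 3.07 to 15.7 ± 1.80 TPM (-0.78, SE 0.13, limma adjusted p = 0.00281), without overlap of the libraries. ACLY went from 133 ± 7.60 to 106 ± 4.69 TPM (-0.32, adjusted p = 0.0225), a call lost when any of 4 of the 6 libraries was left out (shNTC replicate 1 or 3, shISG20 replicate 1 or 2, adjusted p = 0.067 to 0.080). The members that were higher were ACSS2, from 23.2 ± 1.53 to 32 ± 1.94 TPM (0.45, adjusted p = 0.00406), and SCAP, from 38.9 ± 0.392 to 49 ± 0.621 TPM (0.33, adjusted p = 0.00728). INSIG1 (-0.57, adjusted p = 0.129), SREBF1 (-0.38, 0.0823) and ELOVL6 (-0.48, 0.0661) were not called. Without shISG20 replicate 3, the library labelled 484 hours, 6 members were called, 2 higher and 4 lower, ACAT2 being the call lost.

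At 1% O2 the called differences lay in 1 direction. Of the 27 members 4 were called, all higher in shISG20, where 13.9% of all rows were called, 4.25% higher and 9.66% lower. FDFT1 went from 12.7 ± 0.633 TPM in shNTC to 18.4 ± 0.543 TPM in shISG20 (0.51, SE 0.091, limma adjusted p = 0.00503), opposite to its difference at 20% O2. ACSS2 went from 77.4 ± 3.05 to 101 ± 7.44 TPM (0.38, adjusted p = 0.00895) and was higher in shISG20 at both oxygen levels. SCAP (0.24, adjusted p = 0.0306) and SREBF2 (0.19, 0.0333) were higher by less, and neither was called in a fit of these 2 groups alone (adjusted p = 0.15 and 0.12) or when shNTC replicate 1 or 2, or shISG20 replicate 2 or 3, at 1% O2 was left out. The SREBF2 call was also lost without shNTC replicate 3.

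HMGCS1 was 74.6 ± 2.37 and 95.9 ± 15 TPM at 1% O2, a difference of 0.35 that was not called (limma adjusted p = 0.0928), and FDPS was 111 ± 1.14 and 141 ± 6.07 TPM (0.34, adjusted p = 0.0746). Both were called higher with median-of-ratios size factors (adjusted p = 0.031 and 0.028), with only mouse-matched rows (0.026 and 0.019) and with voom. The count of members called higher at 1% O2 was 7 with size factors and 7 with mouse-matched rows, and voom called 10 higher and 1 lower, DHCR7. Over all rows, size factors called 1029 of 14389 higher and 1083 lower, against 611 and 1390 in the main fit. Mouse-matched rows gave 603 of 9280 higher and 1627 lower, and voom 1025 of 14389 higher and 1729 lower. Across the 27 members the differences at 20% O2 and at 1% O2, which share no library, had a Pearson correlation of 0.13, and 16 had the same sign at both. Neither value was computed over all rows.

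**Figure D4:**
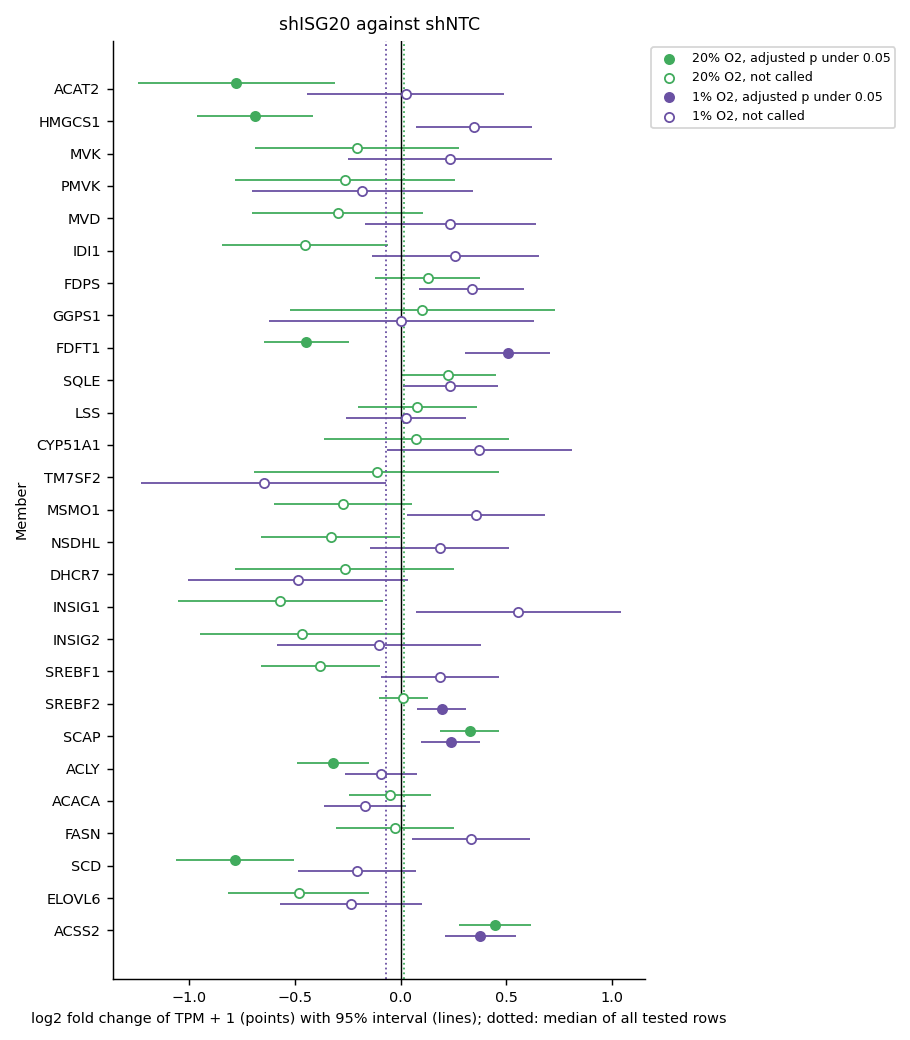
Log2 fold change of TPM + 1 in shISG20 against shNTC (horizontal axis) for the 27 tested members (vertical axis), with 95% intervals as lines, at 20% O2 (green) and 1% O2 (purple); filled points were called and open points were not, and dotted lines mark the median of all tested rows. HMGCS1, FDFT1 and INSIG1 lie to the left of 0 at 20% O2 and to the right at 1% O2, and ACSS2 and SCAP lie to the right at both.

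The human build carries processed pseudogenes of several members, and their rows took reads from these mouse cells. SCDP1 at 20% O2 stood at 88.3 ± 10.3 TPM in shNTC against 49.7 ± 7.26 TPM in shISG20, and at 1% O2 at 204 ± 18.9 against 169.8 ± 28.1 TPM. It followed the SCD row in the calls: lower in shISG20 at 20% O2 (-0.82, limma adjusted p = 0.00354) and higher at 1% O2 in both subclones (1.20 and 1.75). Both tested pseudogene rows of CYP51A1 were higher in shISG20 at 1% O2, CYP51A1P1 by 1.01 (adjusted p = 0.0135) and CYP51A1P2 by 1.05 (0.00302), whereas the CYP51A1 row itself was not called (0.37, 0.256). With the pseudogene rows added to their member, CYP51A1 was called higher in shISG20 at 1% O2 (1.01, adjusted p = 0.0010). FDPSP1 rose with FDPS, from 12 ± 1.92 to 54.8 ± 2.77 TPM in shNTC and from 10.8 ± 2.83 to 61.7 ± 4.11 TPM in shISG20. The change with oxygen was larger in shISG20 for CYP51A1P2 (difference 1.11, limma adjusted p = 0.0219) and FDPSP5 (0.75, 0.0389). The other tested pseudogene rows, and the CYP51A1 and FDPS rows themselves, were not called for that difference. The levels of SCD, CYP51A1, FDPS and IDI1 are therefore uncertain, since reads could be split between a member and its copies.

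Other genes of lipid metabolism were read as 6 lists for comparison at 1% O2. Of all rows tested, 12.8% were called higher and 38.1% lower in shNTC, and 14% and 42.8% in shISG20. The shares that fell in the lists of sterol transport and of fatty acid elongation lay near these. Of 12 genes that process SREBP or turn over INSIG proteins, 1 rose and 9 fell in shNTC, and 1 rose and 11 fell in shISG20, with medians of -0.87 and -1.07. With size factors 2 rose and 7 fell, and 2 rose and 8 fell. ERLIN1, part of a complex that directs sterol-dependent degradation in the endoplasmic reticulum, fell from 329 to 63.7 TPM (-2.36) and from 533 to 68.9 TPM (-2.94), and UBE2G2, a ubiquitin-conjugating enzyme of that pathway, fell as well (log2 changes of -1.81 and -1.84). Named after their values were seen, the Golgi proteases that release SREBP also fell, MBTPS1 (-1.12 and -1.25) and MBTPS2 (-1.42 and -1.76). In that list the gene that rose was SYVN1, a ubiquitin ligase of the endoplasmic reticulum, by 0.93 and 0.75.

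Of 12 genes tested for sterol transport, storage and export, 2 rose and 5 fell in shNTC and 1 rose and 5 fell in shISG20. With size factors 3 rose and 3 fell, and 4 rose and 2 fell. ABCA1 reached 1 TPM in 3 shNTC and 2 shISG20 libraries at 20% O2, and NR1H3 in 3 and 3. Neither reached it in a library at 1% O2, so both passed the filter through 20% O2, which favoured a fall. GRAMD1A, which carries cholesterol from the plasma membrane, rose from 19 to 39.3 TPM (1.01) and from 15 to 43.7 TPM (1.48), and MYLIP, a ubiquitin ligase for lipoprotein receptors, fell (log2 changes of -1.41 and -1.43). Of 14 genes that use isoprenoids, 1 rose and 8 fell in shNTC and 9 fell in shISG20, where limma called 0 higher (0 at an unadjusted p under 0.05, 2 by voom). With size factors 5 rose and 5 fell, and 4 rose and 7 fell. DOLK, the dolichol kinase, fell (log2 changes of -1.56 and -3.04), FNTA, a subunit of the protein prenyltransferases, fell in both (-1.30 and -1.25), and RCE1, which trims prenylated proteins, fell too (-1.08 and -1.50).

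The lists near fatty acids split. Of 16 genes of fatty acid elongation, desaturation and activation, 4 rose and 5 fell in shNTC and 5 rose and 6 fell in shISG20 (7 and 4 in each with size factors). ACACB reached 1 TPM in 2 shNTC and 1 shISG20 libraries at 1% O2 and in 0 at 20% O2, so the filter favoured a rise. FADS2, a desaturase of polyunsaturated fatty acids, rose by 1.24 and 1.48, ACSL3, an acyl-CoA synthetase, rose by 1.09 in shISG20 and had a log2 change of 0.18 in shNTC, and ELOVL1, an elongase of very long chains, fell (log2 changes of -0.72 and -0.77). Of 9 genes of citrate and NADPH supply, 3 rose and 2 fell in shNTC and 4 rose and 2 fell in shISG20, and with size factors 7 rose and 1 fell in each. SLC25A1, which exports citrate from mitochondria, rose from 81.7 to 178 TPM (1.11) and from 82.8 to 278 TPM (1.74), and MTHFD1, a folate enzyme, fell (log2 changes of -0.99 and -1.58). Of 14 genes tested for mitochondrial fatty acid oxidation, 1 rose and 7 fell in shNTC and 8 fell in shISG20, where limma called 0 higher (0 at an unadjusted p under 0.05, 1 by voom). The list medians were -0.36 and -0.46, near the all-row medians of -0.28 and -0.35. With size factors 3 rose and 5 fell, and 2 rose and 3 fell, with medians of -0.077 and -0.062. Over all rows size factors called 3208 and 3822 of 14389 lower, with medians of 0.00. ACAA2 reached 1 TPM in 2 and 3 shNTC libraries at 20% and 1% O2 and in 0 and 1 of shISG20, which favoured a rise. ETFB, an electron carrier subunit, fell (log2 changes of -1.25 and -1.36), HADHB, a subunit of the trifunctional protein, fell (-0.83 and -0.77), and so did SLC25A20, the carnitine carrier (-1.41 and -2.32).

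**Figure D5:**
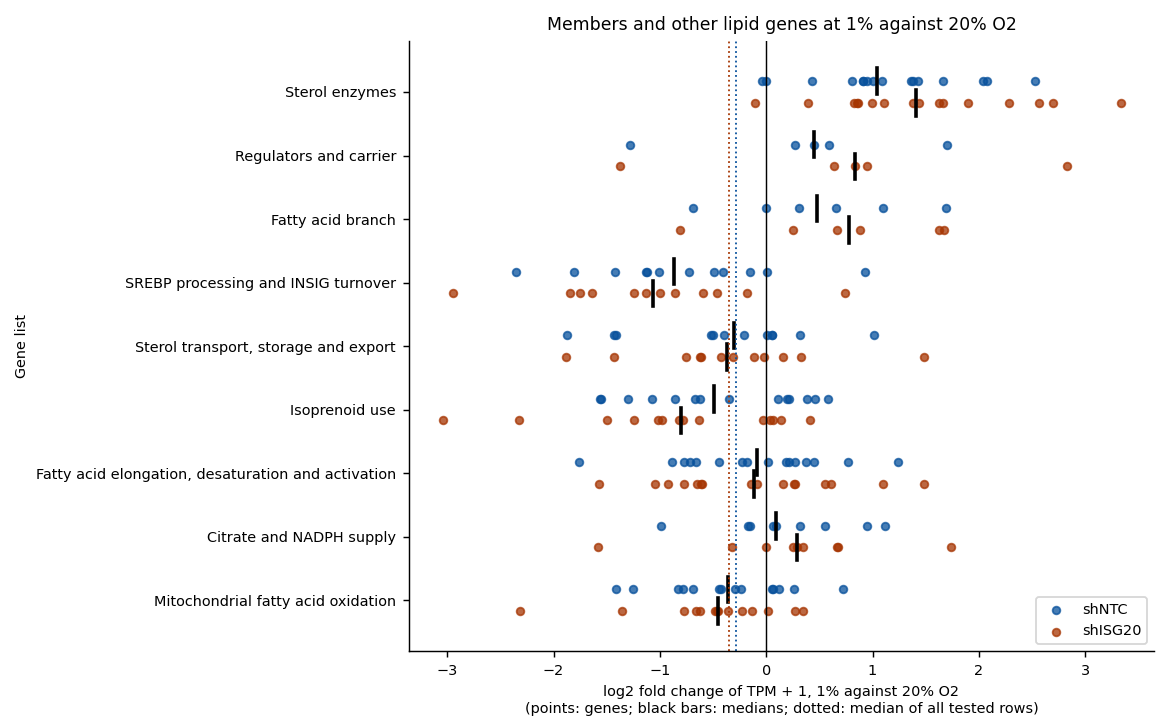
Log2 fold change of TPM + 1 at 1% against 20% O2 (horizontal axis) of each gene (points) in the sterol enzymes, the regulators and carrier, the fatty acid branch and the 6 other lists (vertical axis), in shNTC and shISG20, with list medians as black bars and the median of all tested rows dotted. The sterol enzymes have medians of 1.04 and 1.41, and the genes of SREBP processing and INSIG turnover -0.87 and -1.07.

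Between the subclones, calls in these lists went both ways at 20% O2 and leaned to lower in shISG20 at 1% O2. Of all rows, 11.6% were called at 20% O2, 5.05% higher and 6.55% lower, and 13.9% at 1% O2, 4.25% higher and 9.66% lower. At 20% O2 the list calls were 1 in SREBP processing (ERLIN1, 0.69 in shISG20), 2 in sterol transport (ABCA1, the cholesterol exporter, -0.84, and GRAMD1A, -0.32), 3 in fatty acid elongation and activation, 3 in citrate and NADPH supply and 1 in oxidation (HADHB, 0.39). For isoprenoid use limma called 0 (4 at an unadjusted p under 0.05, 1 by voom). At 1% O2 the counts were 3 in SREBP processing, 1 in sterol transport and 2 in isoprenoid use, all lower in shISG20. Fatty acid elongation and activation had 1 higher, citrate and NADPH supply 1 higher and 2 lower, and oxidation 1 higher and 1 lower. ACSL3 was lower in shISG20 at 20% O2 (-0.58, limma adjusted p = 0.00121) and higher at 1% O2 (0.33, 0.0205), as FDFT1 was. FADS1, a desaturase, was higher at 20% O2 (0.47), though not in a fit of the 2 groups alone (adjusted p = 0.051). IDH2, the mitochondrial isocitrate dehydrogenase, was lower in shISG20 at 20% O2 (-1.10) and at 1% O2 (-0.85). At 1% O2 SLC25A1 was higher in shISG20 (0.64, adjusted p = 0.000733) and DOLK lower (-1.43, 0.000768). VCP, the segregase that extracts proteins from the endoplasmic reticulum (-0.32), ERLIN2 (-0.41), NR1H2, a sterol-sensing nuclear receptor (-0.33), RABGGTA, a Rab prenyltransferase subunit (-0.39), and ACAA2, a mitochondrial thiolase (-0.80), were also lower there, and HADHB was higher (0.45). ACAA2 reached 1 TPM in 2 and 3 shNTC libraries at 20% and 1% O2 and in 0 and 1 shISG20 libraries. It passed the filter through shNTC, which favoured a lower value in shISG20. The same holds for ABCA1, with 3 shNTC and 2 shISG20 libraries at 20% O2 and 0 at 1% O2. The calls of ERLIN2, NR1H2, RABGGTA and ACAA2 did not hold in fits of the 2 groups alone (adjusted p = 0.097, 0.072, 0.070 and 0.067), nor did those of HADHB at 1% O2 (0.066) and of ABCA1 (0.051) and GRAMD1A (0.074) at 20% O2. The ACSL3 call at 1% O2 was lost without any of the 3 shNTC libraries or shISG20 replicate 3 (adjusted p = 0.051 to 0.065). Leaving out 1 of the 6 libraries also ended calls at 20% O2. HADHB was lost without any but shNTC replicate 1 (adjusted p = 0.052 to 0.086), FADS1 without any but shNTC replicate 3 (0.055 to 0.080), and ABCA1 (0.062 to 0.075) and GRAMD1A (0.070 to 0.093) without any but shNTC replicate 2 and shISG20 replicate 3. At 1% O2 NR1H2 (0.054 to 0.071) and ERLIN2 (0.064 to 0.081) were lost without shNTC replicate 2 or shISG20 replicate 1 or 3, and NR1H2 also without shNTC replicate 3. ACAA2 was lost without any library but the first of shNTC and the third of shISG20 (0.077 to 0.10). RABGGTA was lost without any but the third of shNTC and the second of shISG20 (0.10 to 0.13), and with size factors (0.060).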

How the data were processed

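The authors deposited a single table of TPM values for the 12 EMT6 libraries, made with FastQC, STAR, featureCounts and the build GRCh38, per the submitters' processing notes, with no versions given in the sources used here. Of its 60683 rows 40392 were at 0 in every library. Every TPM was a whole multiple of the worth of 1 read within its row (tolerance 1e-06), and the reads so recovered gave totals of 3173991 to 5201799 a library. The smallest whole numbers with the right ratios were taken, so a divisor shared by a row's counts is lost. A row with reads in 1 library only is given 1 read by construction. Recovered reads and totals are therefore lower bounds. Intervals and counts cover the spread between libraries and not errors of mapping mouse reads to a human build. The test took the 14389 rows that reached 1 TPM in 3 or more libraries. The fit used limma 3.58.1 with a trended prior in R 4.3.3 on log2(TPM + 1), the 4 group means over all 12 libraries and 5 contrasts, with Benjamini-Hochberg adjustment over all rows and a threshold of 0.05. The difference between the subclones' oxygen changes was a contrast of the same fit. Tables and figures were made with Python 3.11.15, pandas 2.3.3 and matplotlib 3.10.9, and the fit was tested on simulated data.

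The alternatives were a pseudocount of 0.1, no filter, median-of-ratios size factors, rows that match a mouse gene only, voom on recovered reads, the groups compared only, a replicate block, pseudogene rows added to their member, and each library left out. The members and lists were chosen with earlier results of these data known. All 31 members are named, with ISG20, VEGFA and SLC2A1, and from each list at most 2 called genes a comparison, those with the smallest p; 1 gene that this rule names is not reported here. Promoter letters came from RefSeq (GRCm38.p6) and share no coordinates with the deposited table.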

Additional observations from a re-analysis of the deposited data

Results flagged for a closer look

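The change from 20% to 1% O2 differed between the shNTC and shISG20 subclones, by limma's test of that difference, for 2 members and 7 other named genes. The members are 2 of 27, both higher, where 6.93% of all rows were called, 2.62% higher and 4.31% lower. HMGCS1 rose more in shISG20, by 1.04 on the log2 scale (adjusted p = 0.00737). It was lower in shISG20 at 20% O2, and its difference of 0.35 at 1% O2 was not called (adjusted p = 0.0928). FDFT1, called lower in shISG20 at 20% O2 and higher at 1% O2, had a difference of 0.95 (adjusted p = 0.00279). Neither call was lost under any alternative run.

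Of the other lipid genes, ACSL3 had a difference of 0.91 (adjusted p = 0.00180) and SLC25A1 of 0.62 (0.0105). GRAMD1A had a difference of 0.47 (0.0346), lost in 9 of 12 fits that left out a library. Genes with the more negative change in shISG20 were DOLK with -1.49 (0.00785), ERLIN1 with -0.59 (0.0331), lost in 9 of 12 such fits, and PDSS2 with -1.21 (0.0455), lost in 11 of 12. ISG20 itself had a difference of -1.07 (0.0192), a call lost with a pseudocount of 0.1 (adjusted p = 0.42), by voom (0.68) and when the first or the second shNTC library at 1% O2 was left out (0.051 and 0.053).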

How the results depend on the processing

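The count of members called stayed within 1.5 times its value under the alternatives run in the 20% O2 comparison of subclones (7) and in both oxygen comparisons (22 and 24). At 1% O2 it was 4, and became 7 with median-of-ratios size factors, 7 with only rows that match a mouse gene and 11 with voom. For the difference of the oxygen changes it was 2, and became 5, 7 and 7 under the same settings. With a library left out the counts were 5 to 6 at 20% O2, 2 to 4 at 1% O2, 21 to 23 in shNTC, 23 to 24 in shISG20 and 2 to 3 for the difference. The count at 1% O2 was 2 without shNTC replicate 1, shNTC replicate 2 or shISG20 replicate 3. Over all rows the count for the difference went from 997 to 1050, 1421 (of 9280 rows) and 1834 under these 3 settings. At 1% O2 it went from 2001 to 2112, 2230 (of 9280 rows) and 2754. At 20% O2 the voom count was 2479 against 1670. The causes were not tested.

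Members that changed sign were not called in the main result. GGPS1 turned to -0.00183 at 20% O2 with voom, to 0.21, 0.035 and 0.10 in shNTC with size factors, mouse-matched rows and voom, and to 0.17 and 0.18 in shISG20 with size factors and voom. In shNTC MVK turned to 0.096 and 0.033 with size factors and voom, and ELOVL6 to 0.31, 0.057 and 0.15 with size factors, mouse-matched rows and voom. With pseudogene rows added, FDPS turned to -0.029 and CYP51A1 to -0.061 at 20% O2. With a library left out, the values at 20% O2 ran from -0.061 to 0.17 for CYP51A1, -0.11 to 0.016 for FASN, -0.023 to 0.25 for FDPS, -0.049 to 0.36 for GGPS1, -0.00030 to 0.17 for LSS and -0.44 to 0.076 for TM7SF2. At 1% O2 they ran from -0.045 to 0.068 for ACAT2, -0.15 to 0.25 for GGPS1, -0.24 to 0.015 for INSIG2, -0.037 to 0.077 for LSS and -0.42 to 0.020 for PMVK. In shNTC they ran from -0.15 to 0.092 for ELOVL6, -0.25 to 0.15 for GGPS1 and -0.13 to 0.078 for MVK, and in shISG20 from -0.36 to 0.026 for GGPS1.

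Samples with the same replicate number did not deviate together (correlations of -0.042 to 0.015 over 18 pairs, against -0.033 to 0.052 over 36 pairs with different numbers). With a replicate block the counts were 7, 3, 22, 24 and 2, the member's call lost being SCAP at 1% O2 (adjusted p = 0.056). Of the other named genes RABGGTA (0.055) and ACAA2 (0.060) lost their calls at 1% O2, and GRAMD1A (0.052) and PDSS2 (0.082) theirs for the difference.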
